A study of Mus musculus with 6 samples.

Results

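Open chromatin was described at 10 genes of the Nodal and Activin signalling pathway, namely Nodal, Inhbb, Tdgf1, Acvr2b, Smad2, Smad3, Lefty1, Lefty2, Smad7 and Skil, in mouse embryonic stem cells that were losing naive pluripotency. A listed interval belonged to one of these genes when its midpoint had an end of that gene as the nearest end of any protein-coding gene, within 100 kb. By this rule 209 of the 258093 intervals in 3 deposited ATAC-seq peak lists belonged to the 10 genes. Intervals that overlapped between lists were merged, which gave 107 regions at the 10 genes, of 113840 regions at any protein-coding gene and 131410 regions in all. A region placed at a gene in this way need not act on it.

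The cells were E14 mouse embryonic stem cells, an established line, in 3 groups of 2 samples, with no genetic change named in the labels. The 2iL group grew in N2B27 medium with CHIR99021 (an inhibitor of GSK3), PD0325901 (an inhibitor of MEK) and the cytokine LIF, together called 2iL. The 48 h and 96 h groups had been plated in the same medium, then had 2iL taken away and stayed in N2B27 alone for 48 h or 96 h. ATAC-seq, in which a transposase cuts accessible DNA and leaves sequencing adapters there, was run on nuclei of 100000 cells per sample.

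Nodal and Activin are secreted ligands of the TGF-beta family. They bind type II receptors such as Acvr2b together with type I receptors, Nodal with the help of the co-receptor Cripto (Tdgf1), and the receptors phosphorylate Smad2 and Smad3, which enter the nucleus with Smad4 and act on genes beside DNA-binding partners such as Foxh1. Lefty1 and Lefty2 are secreted inhibitors of Nodal, Smad7 blocks the receptors and Skil (SnoN) represses Smad target genes, and these inhibitors are themselves known targets of the pathway. In mouse embryonic stem cells the pathway is active in self-renewing culture, and it supports the cells' passage from the naive state towards germ layers. Nodal is known to have enhancers upstream of the gene and inside it, some of which respond to Nodal's own signal. The deposited lists do not name these enhancers, so no region below was matched to one.

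Promoter windows are shown for 4 genes, because the lists cover these windows to different extents. Each runs from 250 bases before to 50 bases after the transcription start, from RefSeq on build GRCm38.p6, the assembly also called mm10. Such windows were matched for 5 of the 10 genes (Nodal, Inhbb, Tdgf1, Acvr2b and Smad3). Capitals mark the bases that lay inside a listed interval in all 3 lists, and lower case marks the rest. The windows are Nodal at chr10:61417722-61418021 on the plus strand, Inhbb at chr1:119422199-119422498, Tdgf1 at chr9:110946109-110946408 and Smad3 at chr9:63757945-63758244, the last 3 on the minus strand.
Nodal promoter: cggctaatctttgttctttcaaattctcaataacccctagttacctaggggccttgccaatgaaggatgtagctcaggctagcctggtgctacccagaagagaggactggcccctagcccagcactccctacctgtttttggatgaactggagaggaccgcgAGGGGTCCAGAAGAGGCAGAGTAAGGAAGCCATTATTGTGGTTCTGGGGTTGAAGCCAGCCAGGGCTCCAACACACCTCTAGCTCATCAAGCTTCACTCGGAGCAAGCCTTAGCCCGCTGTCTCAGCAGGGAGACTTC
Inhbb promoter: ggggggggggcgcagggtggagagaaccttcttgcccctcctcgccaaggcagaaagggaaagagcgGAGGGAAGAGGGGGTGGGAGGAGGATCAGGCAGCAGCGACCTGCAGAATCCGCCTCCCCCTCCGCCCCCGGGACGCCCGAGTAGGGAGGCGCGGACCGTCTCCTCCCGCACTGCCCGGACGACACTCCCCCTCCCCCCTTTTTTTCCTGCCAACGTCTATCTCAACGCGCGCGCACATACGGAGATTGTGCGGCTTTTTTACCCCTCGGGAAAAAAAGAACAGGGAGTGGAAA
Tdgf1 promoter: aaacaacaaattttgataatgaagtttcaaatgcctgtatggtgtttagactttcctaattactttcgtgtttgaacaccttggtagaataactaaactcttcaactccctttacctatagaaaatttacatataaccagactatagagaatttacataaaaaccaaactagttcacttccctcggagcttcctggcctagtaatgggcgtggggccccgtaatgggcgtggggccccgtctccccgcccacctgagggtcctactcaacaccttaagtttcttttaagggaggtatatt
Smad3 promoter: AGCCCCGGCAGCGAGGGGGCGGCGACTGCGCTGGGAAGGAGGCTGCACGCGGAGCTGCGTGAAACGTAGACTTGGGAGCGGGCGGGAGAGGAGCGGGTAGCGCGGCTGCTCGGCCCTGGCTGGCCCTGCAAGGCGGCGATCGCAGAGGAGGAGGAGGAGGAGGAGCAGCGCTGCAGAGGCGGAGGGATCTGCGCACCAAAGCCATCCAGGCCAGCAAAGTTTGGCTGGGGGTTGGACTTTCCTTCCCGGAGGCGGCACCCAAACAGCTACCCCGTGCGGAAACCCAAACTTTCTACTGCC
The Nodal window held 201 accessible bases in 2iL, 266 at 48 h and 138 at 96 h, on its downstream side. At Inhbb the numbers were 233, 287 and 288. The Smad3 and Acvr2b windows lay inside an interval over all 300 bases in every list, whereas the Tdgf1 window held 0 accessible bases in every list. Of the 5 windows 4 therefore overlapped an interval in each list, beside 62.0%, 64.7% and 63.9% of all 21263 promoter windows in the 3 lists in that order. CpG dinucleotides numbered 5 in the Nodal window and 7 in that of Tdgf1, against 23 for Inhbb, 25 for Smad3, 27 for Acvr2b and a median of 13 over all windows. The bases G and C made up 41.7% of the Tdgf1 window and 54.0% of the Nodal window, against a median of 56.3% over all windows.

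The same windows were searched on both strands for 4 short motifs. The Smad half-site CAGAC, or its reverse GTCTG, was in the Tdgf1 window at base 138 and in the Acvr2b window at base 18, counted from the 5' end of the window. It is a common string, held by 48.4% of all windows. None of the 5 windows held AATNCACA, which Foxh1 recognises (2.93% of all windows), ATCAAAG of the TCF/LEF factors (3.22%) or ATGCAAA of the POU factors (4.23%). No overlap between motifs arose, and a match to these letters is a description and not a bound site.

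Each group had 1 list, made by the authors from samples A and B together. No spread between replicates can be measured from it, so groups are compared by their values without a test or a p-value. The lists held 91228, 88810 and 78055 intervals for 2iL, 48 h and 96 h. The strength of a region is given as tags, the height of the pileup of sequenced fragment ends or fragments at its highest summit. Tags were solved from the deposited fold enrichment and p value. They are not set against the local background around a region, whereas the deposited fold and p value are. A region with many tags can therefore rank low by p value, and the 2 measures can differ in direction between lists. The genome-wide background was 14.2, 15.18 and 13.99 tags, and the weakest of all regions in each list held 42, 39 and 29 tags. Of 7 embryonic stem cell marker genes, 6 had an interval within 1 kb of an end in 2iL (not Esrrb) and 7 at 48 h and at 96 h. For extraembryonic endoderm genes the counts were 4, 4 and 6 of 7, for trophoblast genes 6, 6 and 5 of 7, and for fibroblast genes 4 of 7 in each list, so that an interval at a gene end did not mark cell type. In 2iL and at 48 h Gata4, Pdgfra and Dab2 lacked such an interval, and at 96 h of these Dab2 alone did. Whether other cell types had a part in the results at the 10 genes was not tested. In cell populations such as these, fewer cells with an open region and a less open region in each cell cannot be told apart.

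The 10 genes had 74 intervals in 2iL, 73 at 48 h and 62 by 96 h. These covered 58.3, 60.1 and 48.4 kb. The 96 h list was also the shortest as a whole. With lists of equal length the 10 genes had 62, 61 and 62 intervals, so the lower count at 96 h was not seen. Between 2iL and 96 h, 5 of the 10 genes had fewer intervals (Nodal, Acvr2b, Smad3, Lefty1 and Smad7), 4 had the same number (Inhbb, Tdgf1, Lefty2 and Skil) and Smad2 alone had more. Of 18293 genes with an interval, 45.3% had fewer at 96 h, 29.6% the same number and 25.1% more. Smad7 had the most intervals in 2iL with 19, against 13 at 48 h and 11 at 96 h. Skil had 4 intervals in 2iL, 11 at 48 h and 4 again at 96 h. Smad2 had 4, 7 and 8. Tdgf1 had 1 interval in each list. A long gene with distant neighbours can collect more intervals than a short one by this rule, as at Smad3 (111 kb long, 29 regions) against Lefty1 (3.38 kb, 4 regions).

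**Figure D1:**
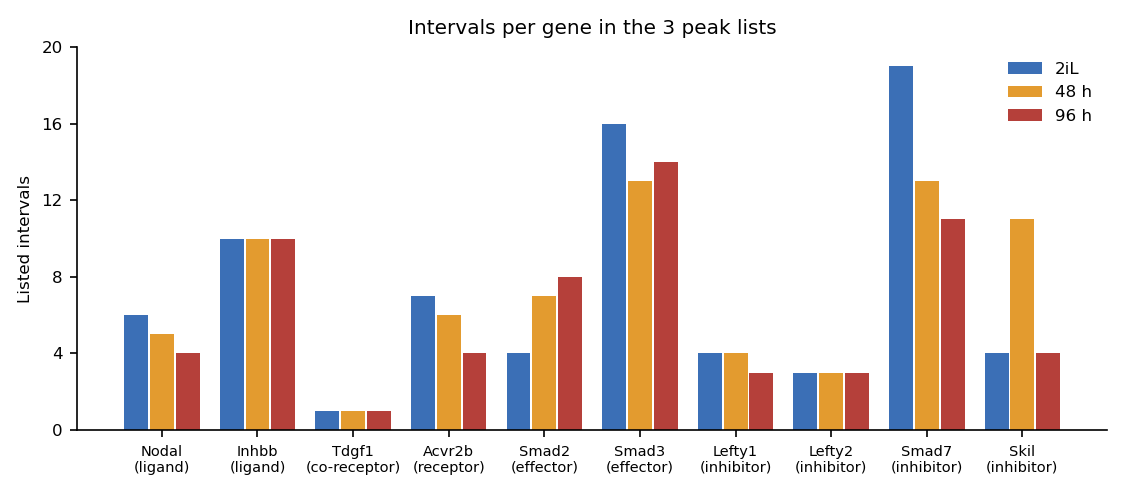
Listed intervals (vertical axis, count) at each of the 10 genes in the 2iL, 48 h and 96 h peak lists, 1 list per group. Smad7 goes from 19 to 11, Smad2 from 4 to 8, and Skil stands out at 48 h with 11.

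Every one of the 10 genes had an interval within 1 kb of an end in each list, beside 67.6% of all genes in 2iL, and 69.7% and 68.0% in the later lists. Of the 107 regions, 45 had their centre inside their own gene, 62 lay outside any protein-coding gene, 12 lay within 1 kb of an end and 40 lay over 20 kb away. The median distance to the end was 12.9 kb, beside 11.4 kb over all regions at genes.

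A region is called lost here when the earlier list holds it and the later one does not, and gained in the reverse case. Between 2iL and 96 h the 10 genes lost 34 of 70 regions, 48.6% (95% exact binomial interval 36.4% to 60.8%), beside 43.1% at all genes. They gained 24 of the 60 regions listed at 96 h, 40.0% (27.6% to 53.5%), beside 32.6% at all genes. From 2iL to 48 h, 23 of 70 regions (32.9%) were lost and 23 of 70 gained, beside 31.4% and 29.5% at all genes. From 48 h to 96 h, 25 of 70 (35.7%, 24.6% to 48.1%) were lost and 15 of 60 (25%, 14.7% to 37.9%) gained, beside 29.7% and 19.0%. The share at all genes was inside the interval of the 10 genes in each of these 6 cases. The share gained from 48 h to 96 h rested much on Smad3, and without that gene it was 13.0% (6 of 46). In all 3 lists there were 35 of the 107 regions, 32.7% against 38.2% at all genes, and 13 were listed at 48 h alone, 12.1% against 10.2%. The binomial intervals describe counting error alone, with each region taken as independent of its neighbours.

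Losses and gains were at distant regions for the most part. Over 1 kb from a gene end, 33 of 61 regions (54.1%) were lost between 2iL and 96 h and 22 of 50 (44%) gained, beside 50.5% and 38.6% of such regions at all genes. Within 1 kb of an end, 1 of 9 was lost and 2 of 10 gained, beside 11.0% and 11.6%.

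By role, the counts rest on few regions each, and are to be read beside the 43.1% lost and 32.6% gained at all genes. The inhibitors lost 14 of 28 regions between 2iL and 96 h and gained 7 of 21. At the effectors Smad2 and Smad3, 12 of 20 were lost and 14 of 22 gained. The ligands lost 5 of 15 and gained 3 of 13, the receptor Acvr2b lost 3 of 6 and gained 0 of 3, and the co-receptor Tdgf1 kept its 1 region. Lost regions were the weaker ones within the 2iL list, as at all genes. Ranked by the deposited p value, their median percentile was 35.5, against 71.6 for the 36 regions kept, and at all genes the medians were 33.1 and 66.8. Of the 34 lost regions 11 were in the weakest 25% of the 2iL list.

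**Figure D2:**
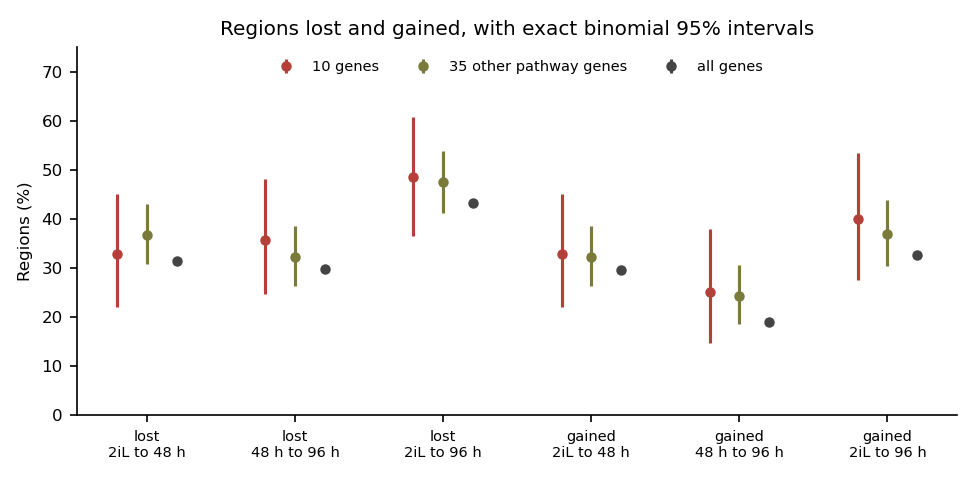
Regions lost and gained (vertical axis, percent of the regions in the earlier or the later list) between pairs of lists, at the 10 genes (red), 35 other pathway genes (green) and all protein-coding genes (grey), with exact binomial 95% intervals for counting error. The red intervals include the grey point in each of the 6 cases, for example 48.6% beside 43.1% for regions lost between 2iL and 96 h.

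Tags of the 35 regions in all 3 lists were compared as log2 differences. Over the 43474 such regions at all genes the median tags per background differed by 0.17 from 2iL to 48 h, 0.12 from 48 h to 96 h and 0.28 from 2iL to 96 h (log2), so each difference below is given relative to that median. Intervals in brackets are 95% intervals for the counting error of tags alone, and do not hold the spread between cultures. The median difference over the 35 regions was -0.22 between 2iL and 96 h and -0.11 between 48 h and 96 h. Both medians changed sign, to 0.05 and 0.01, when tags were set against the genome-wide background alone. From 2iL to 48 h the median was -0.20, or -0.03 against the background.

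Larger differences were mostly towards fewer tags at 96 h. Between 2iL and 96 h, 8 of the 35 regions held over 2-fold fewer tags (22.9%, beside 13.0% at all genes) and 1 held over 2-fold more (2.86%, beside 6.73%). Against the background alone these counts were 5 and 3. The 8 regions included one 3.08 kb below Lefty2. Its rank by p value within its list was higher at 96 h (percentile 46.3) than in 2iL (37.5). From 48 h to 96 h, 6 held over 2-fold fewer and 2 over 2-fold more, beside 9.77% and 1.19% at all genes. From 2iL to 48 h the counts were 3 fewer and 1 more, beside 4.79% and 6.11%. The 5 regions with the lowest values at 96 h relative to 2iL were at Lefty2, Lefty1, Nodal, Tdgf1 and Smad7, each of them outside the gene. The highest was outside Smad2.

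**Figure D3:**
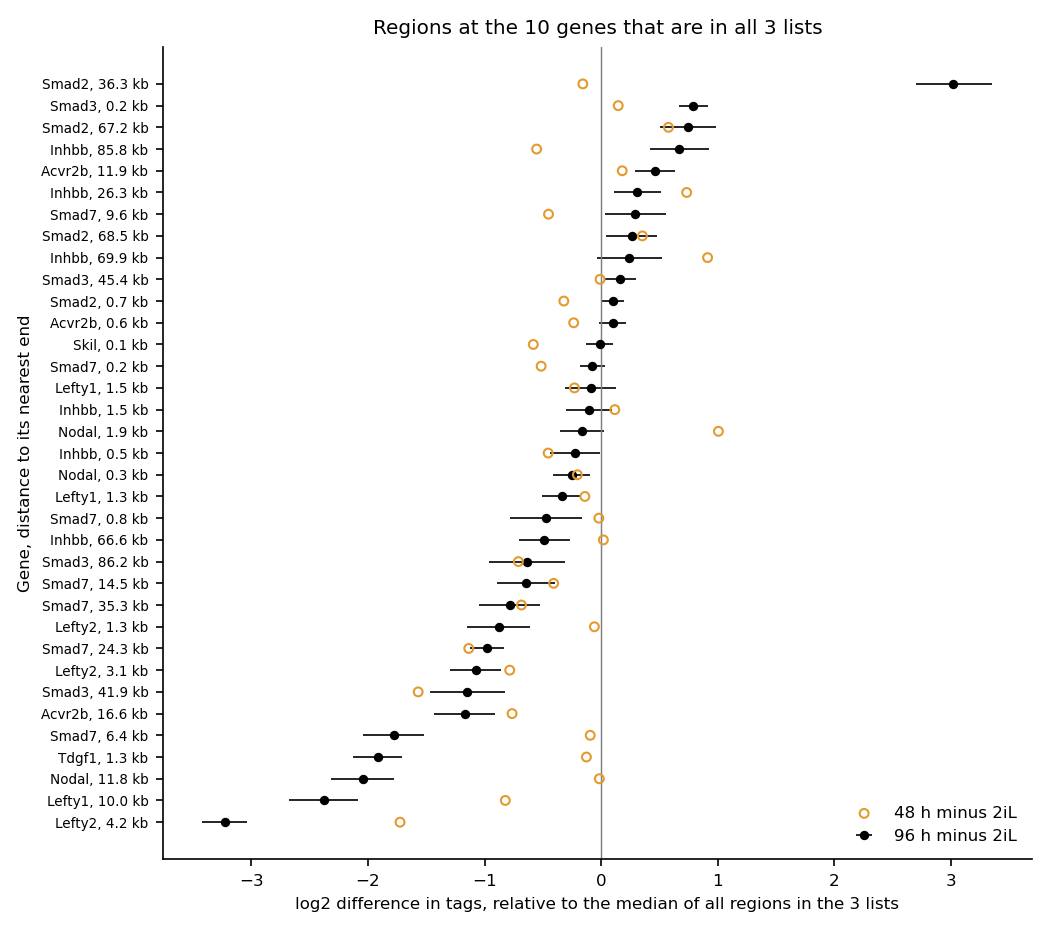
Log2 difference in tags (horizontal axis, relative to the median of all regions in the 3 lists) of the 35 regions at the 10 genes that were in every list, named by gene and distance to its nearest end. Filled points give 96 h minus 2iL with 95% counting intervals, and open points give 48 h minus 2iL. The range runs from -3.23 at Lefty2 to 3.02 at Smad2.

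Nodal encodes the ligand after which the pathway is named, and its 6 regions included 3 that were absent from the 96 h list. The gene is at chr10:61417972-61425338. The strongest of its regions in 2iL, centred 1.74 kb upstream of the start (chr10:61415549-61416905), held 1181 tags in 2iL and 454 at 48 h and was not listed at 96 h. It was at percentile 93.2 of the 2iL list, and of all lost regions at the 10 genes it ranked first there by p value. A region 9.69 kb upstream held 464 tags in 2iL and 239 at 48 h, and was not listed at 96 h. The remaining lost region, 6.75 kb into the gene, held 229 tags and was listed in 2iL only. No region was gained at Nodal.

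The other 3 Nodal regions were in every list and followed different courses. The one over the transcription start (chr10:61417756-61419567) held 676, 707 and 676 tags in 2iL, at 48 h and at 96 h. Its tags were thus nearly level, while relative to the median of all regions in the 3 lists its log2 difference from 2iL was -0.20 (-0.36 to -0.05) at 48 h and -0.25 (-0.41 to -0.10) at 96 h. The latter was 0.02 against the genome-wide background. By p value within each list the region was at percentile 71.2, 77.7 and 76.5. A region 11.8 kb upstream (chr10:61405744-61406579) held 501, 597 and 145 tags, a log2 difference between 2iL and 96 h of -2.04 (-2.32 to -1.77), with nearly all of it after 48 h. A region 5.47 kb into the gene (chr10:61423103-61423780) was highest at 48 h, with 449, 1086 and 479 tags. Its log2 difference was 1.01 (0.85 to 1.17) from 2iL to 48 h and -1.18 (-1.34 to -1.03) from 48 h to 96 h. Of the 3 regions upstream of Nodal, 2 were thus not listed at 96 h and 1 held fewer tags. The other gene nearest to the 6 Nodal regions is Eif4ebp2, 3.77 to 22.3 kb away, and 12.3 kb or more from the 3 upstream ones.

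Inhbb encodes the beta-B subunit of activins and inhibins, and its number of intervals was 10 in each list although the regions were not all the same. It had 13 regions. Between 2iL and 96 h it lost 2 of the 9 listed in 2iL and gained 3 of the 10 listed at 96 h. The region over its start (chr1:119420224-119422486) held 356, 313 and 364 tags in 2iL, at 48 h and at 96 h. By p value within each list this region ranked lower after 2iL, at percentile 58.1, 31.4 and 43.5. Just upstream, 66 bp from it, a region of 343 tags was listed at 96 h only. A group of regions up to 85.8 kb beyond the far end of the gene had the larger differences. The outermost (chr1:119328779-119330429) held 201, 165 and 381 tags, a log2 difference of 1.20 (0.94 to 1.48) from 48 h to 96 h. The regions 69.9 kb and 26.3 kb from the end were highest at 48 h, with 183, 415 and 258 tags and with 342, 685 and 505 tags. A region 16.9 kb from the end held 335 tags in 2iL, was not listed at 48 h and held 63 tags at 96 h.

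Tdgf1 encodes Cripto, the membrane-anchored co-receptor of Nodal, and had a single region (chr9:110946430-110948368). It lay upstream of the gene, its near edge 272 bp from the gene's end, which is why the promoter window shown above held none of it. The region held 772 tags in 2iL, 852 at 48 h and 244 at 96 h. Its tags were thus lowest at 96 h. The log2 difference was -0.13 (-0.27 to 0.02) from 2iL to 48 h and -1.81 (-2.02 to -1.60) from 48 h to 96 h. Of all regions in the 3 lists, 1.66% had a lower value from 48 h to 96 h. The region is 4.15 kb from Lrrc2, the next gene.

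Acvr2b encodes a type II receptor for activins and Nodal, and it kept its start region while its regions within the gene became fewer. All 8 regions had their centre inside the gene (chr9:119401583-119442148), and the numbers of intervals were 7, 6 and 4. The region over the start (chr9:119401397-119403874) held 1133, 1159 and 1447 tags, which by p value put it among the 3 strongest in 2iL of the regions in every list. A region 18.4 kb from the nearer end held 446 tags in 2iL and 104 at 48 h, and was not listed at 96 h. A second, 16.6 kb from the end, held 351, 249 and 186 tags, with a log2 difference of -1.17 (-1.43 to -0.91) between 2iL and 96 h. Another, 11.9 kb from the end, went the other way, with 457, 624 and 749 tags and a difference of 0.46 (0.29 to 0.63). The strongest region listed only at 48 h at any of the 10 genes was also here (chr9:119427131-119428116), with 311 tags. None of the 8 regions was gained between 2iL and 96 h.

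Smad2, a signal-carrying effector of the pathway on chromosome 18, was the only one of the 10 genes with more intervals at 96 h than in 2iL, and it lost no region between them. The largest difference towards more tags among the 35 regions, from 2iL to 96 h, was here. The region 36.3 kb below the gene's lower end (chr18:76204393-76205130) held 87 tags in 2iL, 94 at 48 h and 842 at 96 h. The 2iL and 48 h levels were near the 5th percentile of all regions in each list (89 and 86 tags). The level at 96 h was far above the median of 217 tags in the 96 h list. Its log2 difference between 2iL and 96 h was 3.02 (2.70 to 3.36), at percentile 99.97 of all regions in the 3 lists. The next gene, Zbtb7c, lies 56.2 kb from this region, so its placement at Smad2 rests on distance alone.

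The region over the lower end of Smad2 (chr18:76240911-76242502) was among the strongest of the 10 genes, with 1707, 1647 and 2182 tags, and its log2 difference between 2iL and 96 h was 0.10 (0.01 to 0.19). Beyond the upper end, the regions 67.2 and 68.5 kb away held 222, 399 and 443 tags and 295, 454 and 422 tags. Both were higher at 48 h and 96 h than in 2iL, the first by a log2 difference of 0.74 (0.51 to 0.98) at 96 h. Close by, regions 60.8 and 63.2 kb from the end were not listed in 2iL and held 122 and 232 tags at 48 h and 135 and 216 at 96 h. Of the gene's 9 regions, 8 were thus outside it, by 20.2 kb or more.

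Smad3, the partner effector, exchanged more regions than any other of the 10 genes and had 29 in all. Between 2iL and 96 h it lost 12 of the 16 listed in 2iL and gained 10 of the 14 listed at 96 h. The shares at all genes were 43.1% lost and 32.6% gained. The region over the start of Smad3 (chr9:63757656-63759509) held 801, 1068 and 1652 tags, a log2 difference of 0.79 (0.67 to 0.91) between 2iL and 96 h. It was higher in each later list. A region just inside the gene (chr9:63756512-63757559) was listed at 96 h only, with 703 tags, the strongest gain by p value at the 10 genes, and lies 96 bp from the start region. The other 2 of the 3 strongest gains were also at Smad3, with 206 tags (chr9:63742746-63743285) and 222 tags (chr9:63653382-63654198), and both were listed at 96 h only. The first of these lies 240 bp from a region of 576 tags listed in 2iL only (chr9:63741648-63742505), which was among the 3 strongest losses.

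Away from its start, Smad3 had both steady and variable regions. A region 45.4 kb upstream held 757, 906 and 1012 tags, and its log2 difference between 2iL and 96 h was 0.16 (0.03 to 0.30). Inside the gene, 41.9 kb from its start, a region held 234, 95 and 126 tags, a difference of -1.57 (-1.93 to -1.22) from 2iL to 48 h. The 2iL list also held 6 weaker regions inside the gene, of 81 to 209 tags, that the 48 h and 96 h lists did not hold. Beyond about 45 kb upstream the next gene is Smad6, which encodes another inhibitory Smad, more than 100 kb from each such region.

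**Figure D4:**
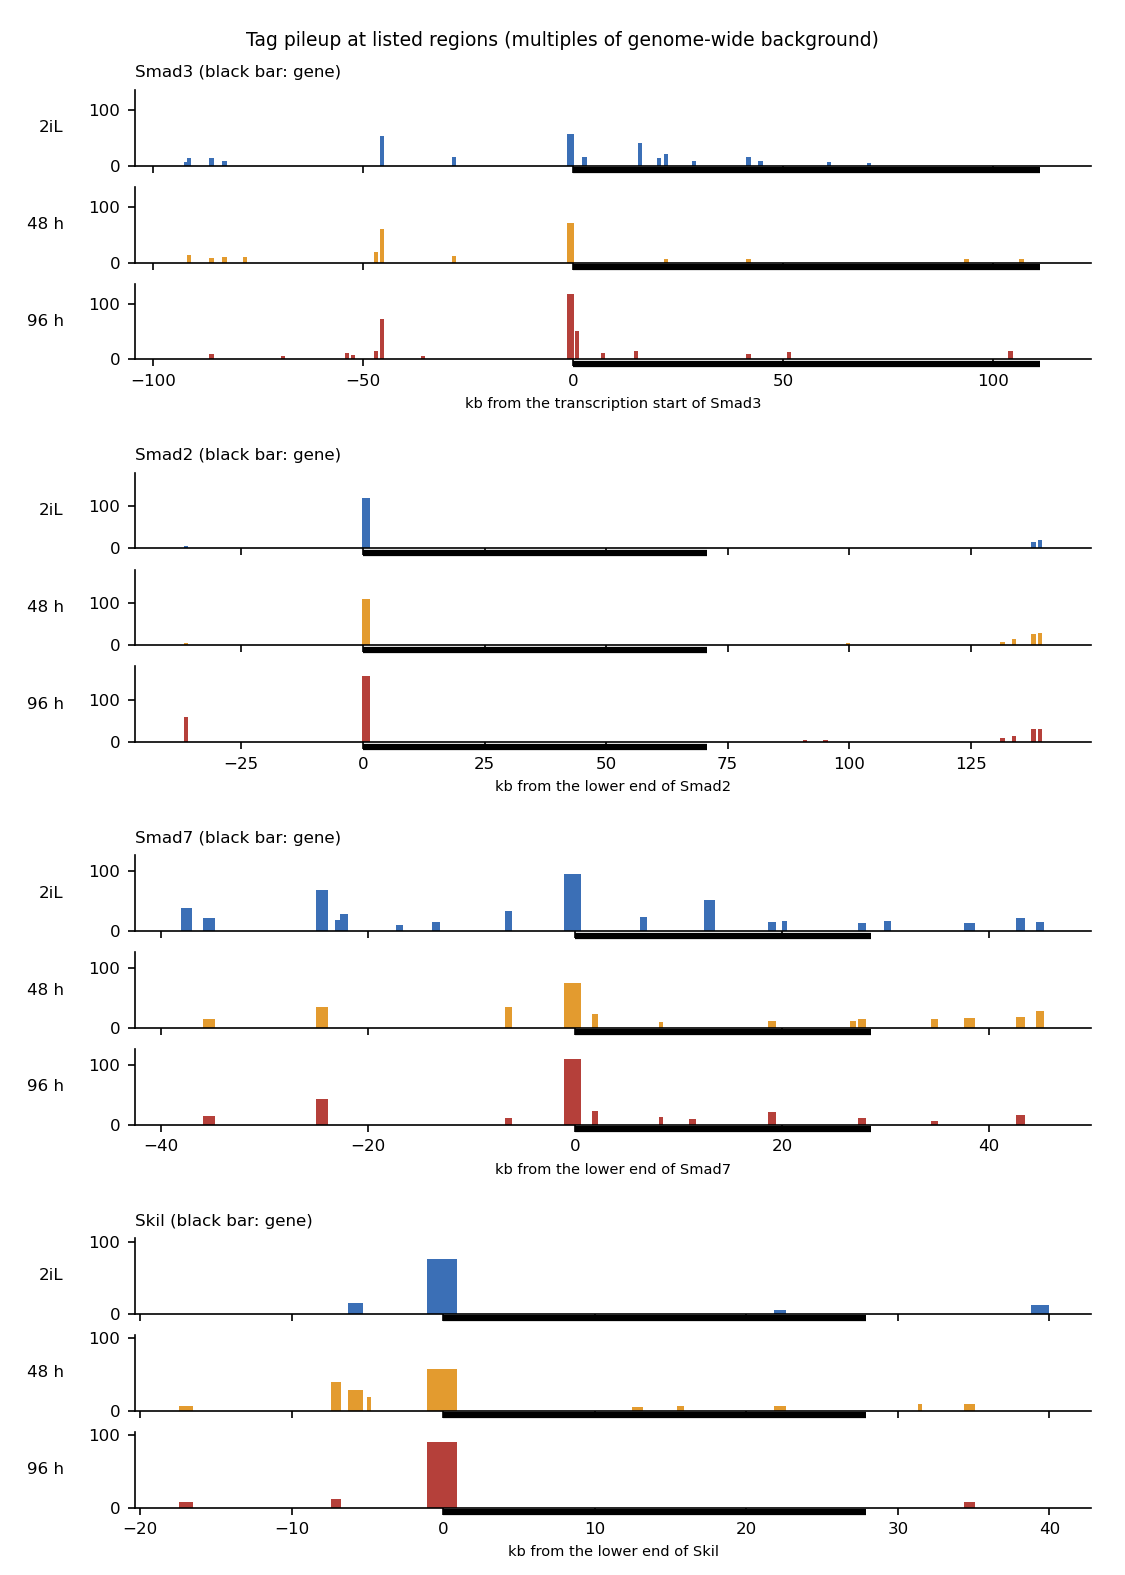
Tag pileup divided by the genome-wide background (vertical axes, multiples) of each listed region at Smad3, Smad2, Smad7 and Skil in the 3 lists, by distance in kb from the start of Smad3 or the lower end of the other genes (horizontal axes). Bars span the merged region and the black bar is the gene. The Smad2 region at -36.3 kb stands out at 96 h with 842 tags, after 87 and 94.

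Lefty1 and Lefty2, secreted antagonists of Nodal, are neighbouring genes on chromosome 1 with closely related sequences. Reads from stretches that both genes share may not have a unique place, and how the authors treated such reads is not given in the sources used here. Between 2iL and 96 h neither gene lost or gained a region, and the differences were in tags. The region 4.25 kb below the lower end of Lefty2 (chr1:180888222-180889523) was the strongest in 2iL of all regions at the 10 genes, with 2025 tags, and held 738 at 48 h and 258 at 96 h. Tags were thus lower in each later list. The log2 difference was -1.73 (-1.85 to -1.60) from 2iL to 48 h, -1.52 (-1.73 to -1.31) from 48 h to 96 h and -3.23 (-3.42 to -3.04) between 2iL and 96 h. The last value is at percentile 0.228 of all regions in the 3 lists.

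The other Lefty regions differed less. A region 9.97 kb below Lefty1 (chr1:180924571-180925541), in the space between both genes, held 518, 353 and 119 tags, with a log2 difference between 2iL and 96 h of -2.38 (-2.68 to -2.09). The region 3.08 kb below Lefty2 held 486, 340 and 275 tags (-1.08, -1.29 to -0.86). Its rank by p value within each list went the other way, at percentile 37.5, 39.9 and 46.3. By contrast, the region over the lower end of Lefty1 (chr1:180933257-180935374) held 588, 643 and 554 tags, and that inside Lefty1 held 325, 334 and 364. The region inside Lefty2 held 299, 346 and 194 tags, a difference of -0.88 (-1.15 to -0.61). A narrow region near the upper end of Lefty1 was listed at 48 h only, with 230 tags. By p value it was at percentile 1.51 of that list.

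**Figure D5:**
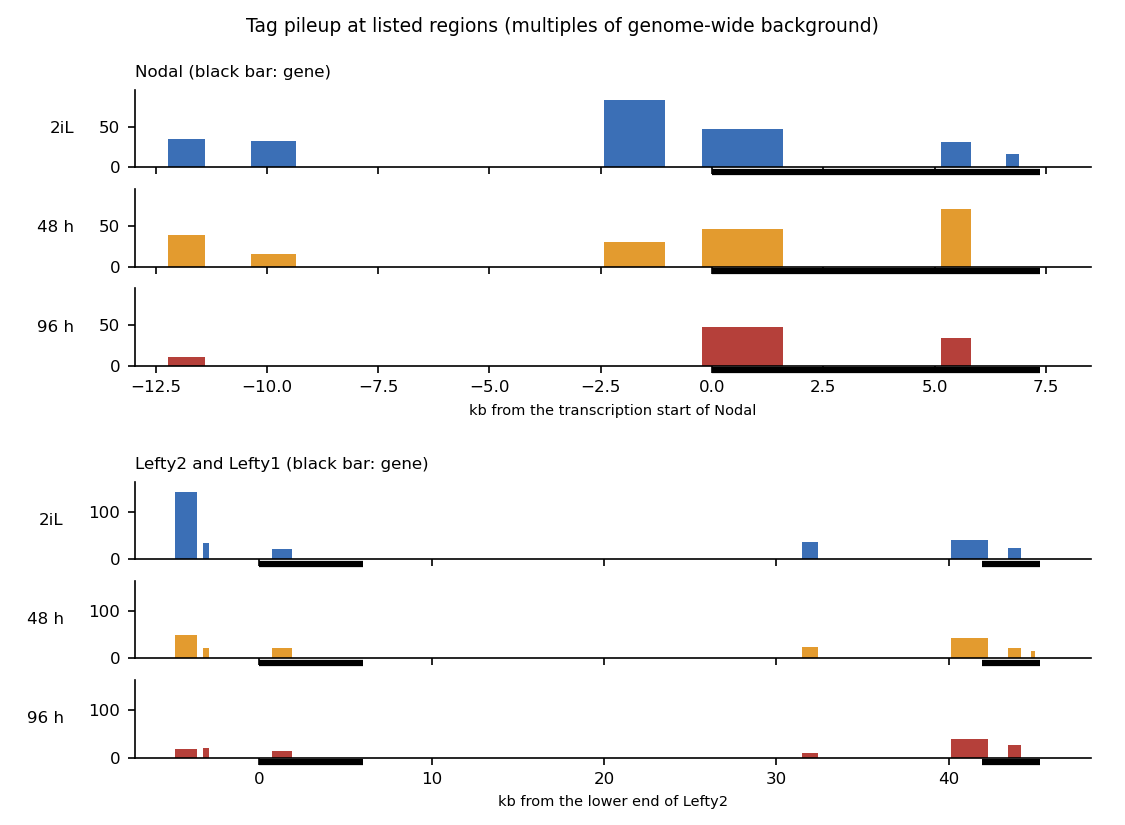
Tag pileup divided by the genome-wide background (vertical axes, multiples) of each listed region at Nodal and at the neighbouring Lefty2 and Lefty1 genes in the 3 lists, by distance in kb from the start of Nodal or the lower end of Lefty2 (horizontal axes). Bars span the merged region and black bars are genes. The Nodal region at -1.75 kb has no bar at 96 h, and the Lefty2 region at -4.24 kb goes from 2025 to 738 to 258 tags.

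Smad7, the inhibitory Smad that acts on the receptors, had the largest drop in intervals of the 10 genes, from 19 to 11. It had 23 regions. Between 2iL and 96 h it lost 11 of the 18 listed in 2iL and gained 4 of the 11 listed at 96 h. The shares at all genes were 43.1% lost and 32.6% gained. Of the Smad7 regions 9 were listed in 2iL only. The strongest of these, inside the gene 13.0 kb from its lower end (chr18:75379819-75380903), held 731 tags, also among the 3 strongest losses by p value. Another, 37.6 kb below the gene, held 541 tags, and the other 7 held 135 to 417. The region over the lower end (chr18:75366317-75367952) held 1365, 1151 and 1545 tags, a log2 difference between 2iL and 96 h of -0.08 (-0.18 to 0.03). So the strong region at the gene end stayed near its 2iL level while regions around it were no longer listed.

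Among the Smad7 regions in every list, 2 differed in when their tags were lower. The region 6.44 kb below the gene (chr18:75360553-75361297) held 466, 526 and 162 tags, with a log2 difference of -0.09 (-0.28 to 0.09) from 2iL to 48 h and -1.70 (-1.96 to -1.45) from 48 h to 96 h. The region 24.3 kb below the gene held 983, 539 and 595 tags, with differences of -1.14 (-1.29 to -0.98) and 0.14 (-0.03 to 0.31). The first was thus lower only at 96 h, as at Tdgf1 and the Nodal region 11.8 kb upstream, and the second already at 48 h. Inside the gene, 1.92 kb from the lower end, a region was absent from the 2iL list and held 348 and 313 tags later. By p value it ranked low, at percentile 17.8 of the 48 h list and 0.702 of the 96 h list.

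Skil encodes SnoN, a repressor bound to Smad complexes, and was the gene with most regions listed for a time only. It had 11 regions, of which 10 were listed at 48 h. Of these 10, 7 were gained from 2iL to 48 h and 6 lost from 48 h to 96 h, beside 29.5% and 29.7% at all genes. Skil had 4 regions listed at 48 h alone. A count of 4 or more such regions was seen at 2.3% of 18293 genes, a limit chosen after the values were seen. The region over the lower end (chr3:31094007-31095953) held 1081, 870 and 1277 tags. A cluster 4.91 to 7.08 kb below the gene held more tags at 48 h than in any other list that held its regions. Its outer region (chr3:31087648-31088317) was not listed in 2iL and held 604 tags at 48 h and 165 at 96 h. The middle one (chr3:31088798-31089776) held 210 tags in 2iL and 434 at 48 h and was not listed at 96 h. Its deposited fold went the other way, at 4.64 and 3.70, while its percentile by p value was 31.1 and 47.8. The inner one held 296 tags at 48 h alone. The other 3 regions listed only at 48 h held 75, 91 and 134 tags. By p value all 4 ranked low in the 48 h list. The region of 296 tags was at percentile 0.358, below the others at 2.11, 11.1 and 11.3.

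Regions near gene ends and far from them differed in their counts. Of 14 regions in every list within 2 kb of an end, 1 held over 2-fold fewer tags at 96 h than in 2iL (7.14%), beside 4.24% of such regions at all genes. Of 21 regions farther away, 7 did (33.3%), beside 18.1%. Against the background alone, 1 of the 14 and 4 of the 21 did, beside 422 of 15891 and 3510 of 27583 at all genes. The strong regions over the ends of Smad2, Smad7, Acvr2b and Skil, each above 1000 tags in 2iL, had differences between 2iL and 96 h from -0.08 to 0.10. No such region at these 4 genes differed 2-fold in either direction, but that level leaves out the other genes. The region over the start of Smad3 differed by 0.79, and those over an end of Nodal, Inhbb and Lefty1 by -0.25, -0.22 and -0.34. The regions nearest to an end of Tdgf1 and Lefty2, which did not reach over it, differed by -1.92 and -0.88.

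Other genes of the pathway were counted in the same way. A list of 35 further ligands, processing enzymes, receptors, Smad partners and inhibitors held 369 regions and 255, 239 and 214 intervals in 2iL, at 48 h and at 96 h. Of these genes 17 had fewer intervals at 96 h than in 2iL, 11 had more and 7 had the same number, among them Fstl3 with 0 regions, where 45.3% of all genes had fewer and 25.1% more. Between 2iL and 96 h 120 of 253 regions were lost (47.4%, 41.1% to 53.8%) and 78 of 211 gained (37.0%, 30.4% to 43.9%), and both intervals include the shares at all genes, 43.1% and 32.6%. The largest differences were all towards fewer intervals. Tgfbr2, a type II receptor for TGF-beta, had 18, 6 and 6 intervals, with 12 of its 20 regions in 2iL only. Pmepa1, an inhibitor of Smad activation, had 25, 21 and 14. Pcsk6, a protease that matures Nodal, had 15, 11 and 8. The ubiquitin ligase gene Nedd4l had 17, 16 and 11, and Ldlrad4, which encodes another inhibitor of Smad activation, had 11, 9 and 5.

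Nodal's pattern of regions, with 3 in all lists, 2 in 2iL and at 48 h, and 1 in 2iL only, was shared exactly by 9 other genes. The first 3 in alphabetical order are Ankrd45, Chrm1 and Gm14410. Likeness was the summed difference in the number of regions over the 7 combinations of the 3 lists, which was 0 for each.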

How the data were processed

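ATAC-seq was run on 6 samples, and the authors deposited 1 peak list per group of 2 samples (A and B), so values are of pooled or combined replicates. The labels do not tell whether A and B were separate cultures. Per the submitters' processing notes, the build was mm10 and the tools included Picard, SAMtools, BWA and bcl2fastq 2.20.0.422, with no roles named. The peak caller is not given in the sources used here, nor are read shifting and duplicate removal, and each could change which weak regions are listed. The files have no header lines. Each line, in the narrowPeak format that the labels name, holds an interval, and the deposited score, fold (a linear ratio) and −log10 p of a summit are the authors' values, used only within their own list. As an exception, the fold of 1 Skil region is given for 2 lists. The deposited −log10 q values were not used. Intervals took the summit with the highest −log10 p.

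Tags were solved from fold and −log10 p as a Poisson pileup, which gave a whole number within 0.02 for 100% of summits. Tested on simulated data, 100% of 5000 summits were recovered, which checks the arithmetic only. This tag scale was chosen after seeing the data. Intervals overlapping by 1 bp were merged into regions. Gene ends came from a RefSeq table of GRCm38.p6 with no strand or exons, so parts of a gene were not distinguished. Python 3.11.15, numpy 2.4.6, pandas 2.3.3 and scipy 1.17.1 were used. The 10 genes, the lists and the tests were chosen with earlier results of these data known. Named regions were those at gene ends, the 3 strongest by p in each list class, the strongest at 48 h only, and, of the 35 other genes, the 5 with the largest difference in intervals. Further regions were named after their values were seen.

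Alternatives were the stronger 50% of each list, lists of equal length, overlap of 50% of the shorter interval, summit for midpoint, gene bodies for gene ends, a limit of 20 kb, other gene-end distances, each gene left out, and another tag scale.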

Additional observations from a re-analysis of the deposited data

How the results depend on the processing

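Of 153 values under alternatives, 143 kept their direction and stayed within the limits set for them, and the others are given here. Each value was judged alone, so a contrast between lists could change without being counted. With lists of equal length the 10 genes had 62, 61 and 62 intervals, so the fall by 96 h was not seen. Between 2iL and 96 h these lists gave 41.4% lost and 43.3% gained, against 48.6% and 40.0% with the full lists. With the stronger 50% of each list, which holds fewer intervals by construction, the 10 genes had 41 intervals in 2iL, then 31 and 28 in the later lists, and the shares gained were 16.1% from 2iL to 48 h and 26.9% from 2iL to 96 h. With gene ends within 20 kb, which admits fewer intervals, they had 46 intervals in 2iL and 39 at 96 h. Without Smad3 the share gained from 48 h to 96 h was 13.0%. Relative to the genome-wide background, a scale added after seeing the data, the median tag difference of regions in all 3 lists reversed to 0.0123 from 48 h to 96 h and 0.0536 from 2iL to 96 h. The scales differ by the median shift of all such regions. No paired analysis was possible because each list pools samples A and B of its group, and leaving out a sample was not possible for the same reason. Depth limits the weakest regions, and those at the 10 genes held as few as 81, 72 and 63 tags. These are under the 5th percentile of all regions in each list (89, 86 and 78 tags), so an unlisted region was not shown to be closed.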

Other observations

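Several regions at the 10 genes lie close to another region with a different list membership. At Smad3 the region of 576 tags listed in 2iL only and that of 206 tags listed at 96 h only are 240 bp apart. The 96 h region of 703 tags is 96 bp from the Smad3 start region, and the 96 h region of 343 tags is 66 bp from the Inhbb start region. At Skil the region of 296 tags listed at 48 h only is 281 bp from its neighbour. The part of interval borders in these losses and gains was not tested.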
